A study of Mus musculus with 6 samples.

Results

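Genes of the extracellular matrix and of the stellate cells that make it were followed in mouse liver in a study named for Boswellia serrata, the tree whose gum resin is Indian frankincense. The list named 39 genes with known roles in the matrix or in stellate cells. Of the 12393 genes that had a probe set with a single gene symbol, 38 belonged to the list; Fbn1 was not analysed here. Each gene was represented by its brightest probe set, judged by the mean log2 of signal plus 16. Of these 38 members, 35 were bright enough to be tested, among 9209 tested genes in all, and Lamb1, Loxl1 and Lrat were not.

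Livers of Swiss-Webster mice were read on 6 Affymetrix MOE430A arrays, 2 per group. The control group ate the control diet. The fraction 1 group had 1% of a fraction labelled hexane added to its diet over 21 days, and the fraction 2 group had 1% of a fraction labelled methanol over the same time. The labels do not say what was fractionated, and give neither sex nor age. Nor do they say if an array stands for a single mouse or a pool, so p-values reflect no more than the spread among these arrays, which may be technical.

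The extracellular matrix of liver is a sparse scaffold of collagens, glycoproteins and proteoglycans that lies mainly around the portal tracts and, as a thin layer, along the sinusoids. Hepatic stellate cells sit in the space between sinusoidal endothelium and hepatocytes, store vitamin A and, when activated by TGF-beta, turn into contractile cells that lay down fibrillar collagen. Matrix metalloproteinases break this scaffold down and TIMP proteins inhibit them, while lysyl oxidases crosslink the collagen.

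No matrix or stellate cell gene passed the threshold of an adjusted p of 0.05 in any comparison (limma, Benjamini-Hochberg over 14755 probe sets). Over the whole table, the share of probe sets that passed was 0.712% when fraction 1 was set against control. It was 0.108% when fraction 2 was, and 0.0136% when the fractions were compared directly. At an unadjusted p under 0.05 there were 9 members (25.7%, against 12.4% of all probe sets), 2 (5.71%, against 6.95%) and 2 (5.71%, against 8.04%), in the same order. Ccn2, a secreted matrix protein known as a mediator of TGF-beta action, had the smallest p among the members, with signals in both fraction 1 arrays above those in the other 4. The collagens Col3a1 and Col5a2, the collagen-binding Sparc, and fibronectin (Fn1) were lower in both fraction 1 arrays than in both control arrays. Fn1, lumican (Lum) and the brightest probe set of Timp3 were lower than control with either fraction. Other tested probe sets of Timp3 had log2 fold changes of 0.15 and 0.11 after fraction 1. The classical signs of stellate cell activation, Col1a1, Acta2 and Timp1, had overlapping signals in fraction 1 and control and in fraction 2 and control.

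**Figure D1:**
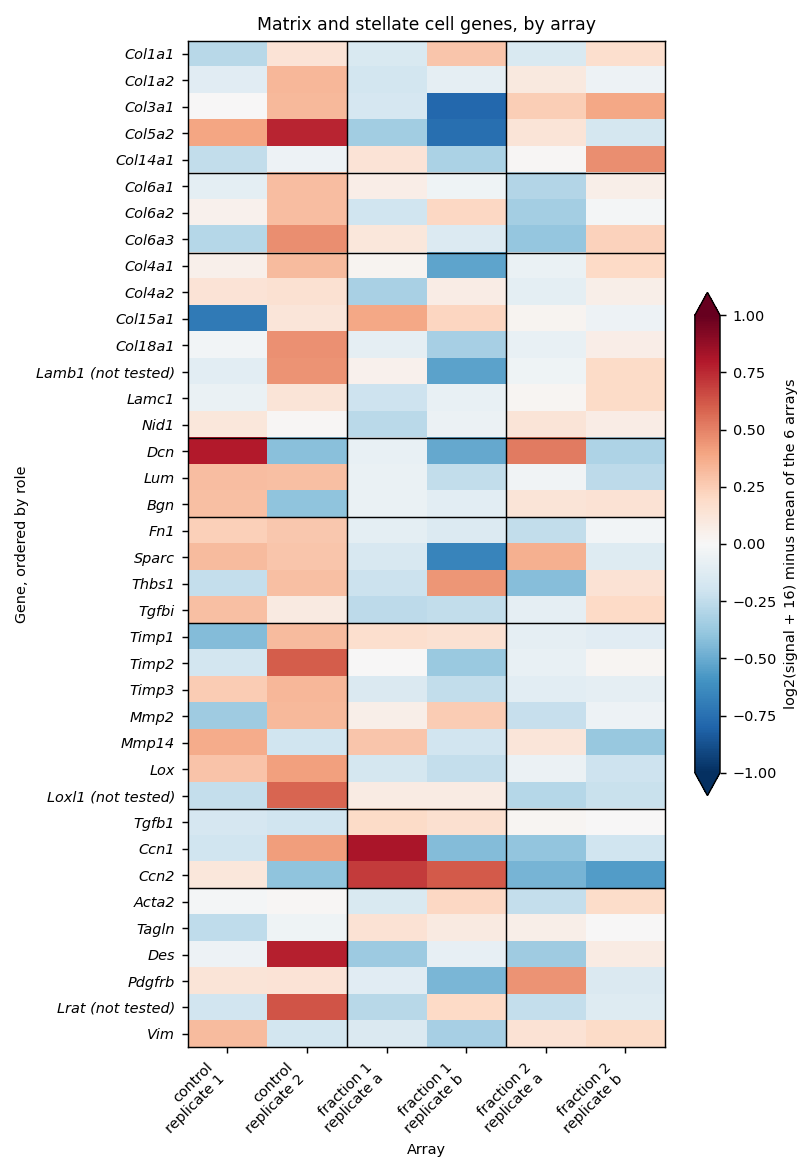
Each row is a member and each column an array, and the colour gives log2(signal + 16) minus the gene's mean over the 6 arrays, with lines between roles and between groups. Ccn2 stands high in both fraction 1 arrays, and control replicate 2 and fraction 1 replicate b hold many of the rows' highest and lowest values.

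The arrays differed in ways that touch this list. Of the 35 tested members, 15 (42.9%) had their highest signal in control replicate 2 and 13 (37.1%) their lowest in fraction 1 replicate b. Among all 9209 tested genes these shares were 31.9% and 19.7%. As a measure of RNA quality, the actin probe sets of the 3' end read 3.87 times those of the 5' end in control replicate 2, where the other 5 arrays ranged from 2.13 to 2.64. Control replicate 1 and fraction 2 replicate a were scanned as batch 2 and the other 4 arrays as batch 1. Dcn, Nid1 and Sparc were higher in both batch 2 arrays than in every batch 1 array, and Col1a1, Col6a1, Col6a3, Mmp2 and Thbs1 were lower in both. These 3 and 5 members of 35 make 8.57% and 14.3%, against 10.8% and 14.3% of all tested genes. The part of RNA quality and scan batch in the results below was not tested beyond the values given.

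Markers of the liver's cell types were read on the same arrays. Of 8 hepatocyte markers 7 were measured and all 7 were tested. Their summed signal was 117218 and 128829 array units in control, 115328 and 104801 after fraction 1 and 98788 and 93363 after fraction 2. Both fraction 1 arrays thus lay below both controls, and both fraction 2 arrays below the other 4. Of 13 stellate cell markers 11 were measured and 9 tested, and Dcn, Des, Pdgfrb and Lrat among them are also members. Of the 9, 8 were below 0 after fraction 1 and 6 after fraction 2, or 88.9% and 66.7%, against 53.7% and 56.9% of all tested genes. Among the 8, Pdgfrb, Lhx2 and Hgf had both fraction 1 readings below the 40th percentiles of their arrays (100.9 and 105.3). Control and fraction 2 arrays alone made these tested markers, which favours a lower value after fraction 1. The summed signal of the 11 measured markers was 8744 and 7480 array units in control, 5739 and 4784 after fraction 1 and 7185 and 6012 after fraction 2, so that both fraction 1 arrays lay below the other 4. Most of this sum came from Reln, Ecm1 and Dcn. The median log2 level of the same 11 markers overlapped between groups, at 7.18 and 6.98 in control, 6.79 and 7.26 after fraction 1 and 7.21 and 6.92 after fraction 2, and was highest in fraction 1 replicate b. Reelin (Reln), a secreted protein that stellate cells are known to make in liver, read 2531 and 2963 array units in control, 1468 and 1092 after fraction 1 and 1883 and 1745 after fraction 2. Its log2 fold change after fraction 1 was -1.10 ± 0.20 SE and missed the threshold (adjusted p = 0.0523 with limma). Among 11 sinusoidal endothelial markers the summed signal was 9293 and 11066 array units in control, 7615 and 7096 after fraction 1 and 8417 and 9172 after fraction 2. Stab2, a scavenger receptor of that endothelium, had the lowest value of the 11 after fraction 1, at -0.92 ± 0.19 SE (adjusted p = 0.0858 with limma). There 8 of the 11 were below 0 and 3 above, namely Cdh5 (0.12), Eng (0.07) and Lyve1 (0.02). After fraction 2, 6 were below 0 and 5 above. Pecam1, at -0.25 after fraction 1, and Lyve1 were also tested through control and fraction 2 arrays alone. In whole liver, fewer cells of a type and less RNA per cell cannot be told apart.

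Ccn1 and Ccn2 are related secreted proteins and well-known targets of the TEAD transcription factors, and Tgfb1 encodes the main activating signal of stellate cells. The upstream sequence of Ccn1 is shown because Ccn2, its relative, had the smallest p between the fractions. That of Tgfb1 is shown because all 4 fraction arrays lay above both controls for it. The 250 bases before the annotated start are printed 5′ to 3′ on the gene's strand, from RefSeq, build GRCm38.p6; the capitals mark CATTCC, the TEAD motif, and GGGCGG, the GC box bound by SP1, on either strand (GGAATG and CCGCCC as read on the gene's strand). The Ccn1 window is chr3:145649986-145650235 on the minus strand and the Tgfb1 window chr7:25686752-25687001 on the plus strand.
Ccn1: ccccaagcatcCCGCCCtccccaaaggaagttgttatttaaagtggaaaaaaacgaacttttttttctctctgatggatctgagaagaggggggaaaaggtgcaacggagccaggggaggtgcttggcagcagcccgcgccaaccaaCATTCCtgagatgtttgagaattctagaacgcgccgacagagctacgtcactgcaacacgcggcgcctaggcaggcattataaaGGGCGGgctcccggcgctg
Tgfb1: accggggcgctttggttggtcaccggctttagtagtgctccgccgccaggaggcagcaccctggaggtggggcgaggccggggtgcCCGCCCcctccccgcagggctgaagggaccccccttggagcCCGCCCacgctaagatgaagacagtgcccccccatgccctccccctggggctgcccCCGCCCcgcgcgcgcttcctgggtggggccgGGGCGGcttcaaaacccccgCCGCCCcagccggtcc
The Ccn1 window holds CATTCC at 103 to 98 bases before the start, and the Tgfb1 window does not hold it on either strand. The 6 letters occur on either strand in 12.6% of the table's 32851 windows of this length, and GGGCGG in 32.7%. The 25 members present in the table had 27 windows, of which 8 held the TEAD motif and 18 the GC box. Counted by gene, these were 8 and 17 members. A match describes the letters and is not a measured binding site.

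Of the signals that act on stellate cells, Ccn2 read 506 and 349 array units in control, 769.6 and 721 after fraction 1 and 335 and 311 after fraction 2. Both fraction 1 arrays lay above both control arrays, and both fraction 2 arrays lay below them. The means were 427 ± 111 in control, 746 ± 34.1 after fraction 1 and 323 ± 16.5 array units after fraction 2 (SD, n = 2 each). After fraction 1 the log2 fold change of Ccn2 was 0.80 ± 0.22 SE, or 1.74-fold, with a 95% interval of 0.29 to 1.31 (adjusted p = 0.173 with limma). It was 0.54 without control replicate 2 and 1.06 within scan batch 1, where control replicate 2 is the only control. After fraction 2 it was -0.37 ± 0.22 SE (adjusted p = 0.787). The scan batches gave -0.57 (batch 2) and -0.16 (batch 1), each from 1 array against 1. Between the fractions Ccn2 differed by 1.17 ± 0.22 SE, or 2.25-fold, with an interval of 0.66 to 1.68; the unadjusted p was 6.67e-04 and the adjusted p 0.225 with limma.

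Ccn1 did not follow Ccn2 within the groups. Its signals were 169 and 268 array units in control, 359.9 and 142 after fraction 1 and 146 and 169.9 after fraction 2. The fraction 1 arrays held both its highest and its lowest reading, and its log2 fold changes were 0.08 ± 0.41 SE after fraction 1 and -0.40 ± 0.41 SE after fraction 2. A dimmer Ccn1 probe set read 77.2 and 85 in control, 34 and 25.7 after fraction 1 and 98.7 and 55.9 after fraction 2. Tgfb1 showed small spreads within groups. Its control signals were 198 and 193 array units, followed by 257 and 251 after fraction 1 and 226 and 224 after fraction 2. All 4 fraction arrays were above both controls, and the log2 fold changes were 0.35 ± 0.21 SE after fraction 1 (adjusted p = 0.545 with limma) and 0.19 ± 0.21 SE after fraction 2 (adjusted p = 0.847).

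**Figure D2:**
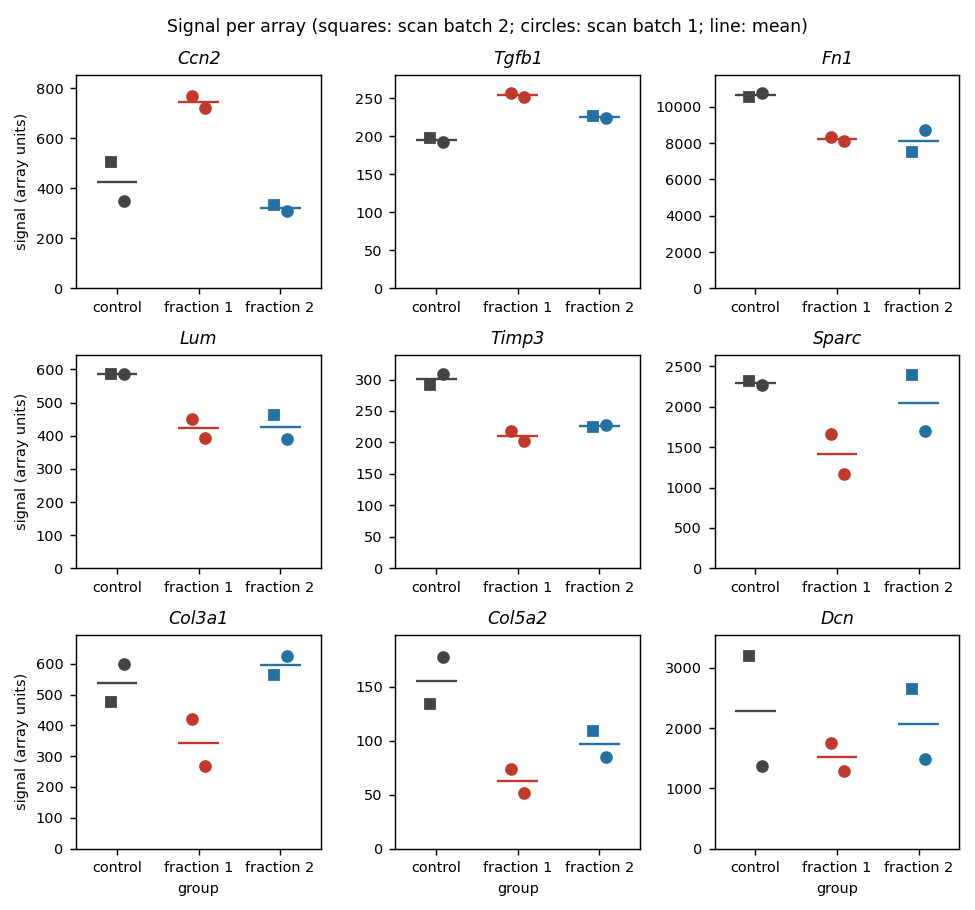
Signal in array units (vertical axis, from 0) of 9 members in control, fraction 1 and fraction 2 arrays, with the mean of each group as a line; squares were scanned in batch 2 and circles in batch 1. Ccn2 is above 700 in both fraction 1 arrays and at most 506 in the other 4, while the readings of Dcn are 2640 and 3190 in the batch 2 arrays and at most 1746 in the others.

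The fibrillar collagens form the load-bearing fibres of scar and portal tracts. Col1a1, an α chain of type I collagen, read 93.1 and 129.9 array units in control, 103 and 145 after fraction 1 and 103 and 133 after fraction 2. The groups overlapped, and the log2 fold changes were 0.14 ± 0.34 SE and 0.08 ± 0.34 SE for fractions 1 and 2 against control. The 95% interval for fraction 1 ran from -0.64 to 0.91. Such signals are low: control replicate 1 lay just below the 40th percentile of its array (93.5). Col1a2, its partner chain, read 415 and 572 in control, 395 and 423 after fraction 1 and 484 and 433 array units after fraction 2. Both fractions overlapped with control for Col1a2, and both fraction 1 arrays lay below both fraction 2 arrays.

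Col3a1, the chain of type III collagen, which accompanies type I collagen in the portal tracts, read 475 and 598 in control, 419.8 and 269 after fraction 1 and 565 and 625 array units after fraction 2. Both fraction 1 arrays lay below the other 4. The log2 fold change was -0.64 ± 0.25 SE after fraction 1 (adjusted p = 0.341 with limma) and -0.79 ± 0.25 SE for fraction 1 against fraction 2 (adjusted p = 0.493). After fraction 2 it was 0.15 ± 0.25 SE against control. Without fraction 1 replicate b, its lowest array, the change after fraction 1 was -0.33, and within batch 1 it was -0.80.

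Col5a2, part of type V collagen, which helps to set the diameter of collagen fibrils, read 134 and 177 in control, 73.4 and 51.6 after fraction 1 and 109 and 84.9 array units after fraction 2. Its groups followed each other without overlap. The log2 fold changes were -1.13 ± 0.37 SE after fraction 1 (adjusted p = 0.248 with limma), the lowest among the 35 members, and -0.60 ± 0.37 SE after fraction 2 (adjusted p = 0.787). These are low signals: both fraction 1 readings lay below the 40th percentiles of their arrays (100.9 and 105.3). Fraction 2 replicate b also lay below that of its array (95.9). A dimmer Col5a2 probe set, not tested, read 49.1 and 20.2 in control, 11.3 and 41.3 after fraction 1 and 22 and 11.4 after fraction 2, with overlap. Col14a1, a collagen that binds to the surface of fibrils, stood at 0.06 after fraction 1 and 0.39 after fraction 2 with its brightest probe set, and at -0.41 and -0.44 with a dimmer one.

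Collagen VI forms beaded filaments around cells, and its chains showed small differences. Col6a1, Col6a2 and Col6a3 had log2 fold changes of -0.10, -0.17 and -0.10 after fraction 1 and of -0.22, -0.36 and -0.17 after fraction 2, with adjusted p from 0.793 to 0.939. Col6a3 read 262 and 451 in the control arrays, a wider gap than the means of any groups of Col6a3 showed. Only Col6a2 after fraction 2, with 228 and 288 against 302 and 366 array units in control, had groups of the brightest probe set that did not overlap with control. A dimmer Col6a2 probe set gave -0.41 and -0.23, and -0.18 between the fractions, where the brightest gave 0.19.

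In the basement membrane list, the network-forming Col4a1 read 432 and 524 in control, 424 and 284 after fraction 1 and 397 and 481 array units after fraction 2. Its log2 fold change after fraction 1 was -0.44 ± 0.25 SE (adjusted p = 0.53 with limma), and a second Col4a1 probe set gave -0.43. It was -0.16 without fraction 1 replicate b. Col4a2, its partner chain, read 602 and 611 in control, 435 and 576 after fraction 1 and 512 and 570.4 after fraction 2, with log2 fold changes of -0.27 and -0.16. All 4 fraction arrays were below both controls for Col4a2.

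Col18a1, the source of endostatin and a collagen that hepatocytes also make, read 6340 and 8908 in control, 6074 and 5127 after fraction 1 and 6163 and 6781 array units after fraction 2. Its log2 fold changes were -0.43 ± 0.18 SE (adjusted p = 0.394 with limma) and -0.22 ± 0.18 SE, and a dimmer Col18a1 probe set gave -0.31 and 0.00. Laminin γ1 (Lamc1) and nidogen 1 (Nid1), which joins laminin to collagen IV, stood at -0.17 and -0.23 after fraction 1 and at 0.08 and 0.04 after fraction 2. Col15a1, found in basement membranes and in portal fibroblasts, had values of the other sign, with 77.8 and 151 in control, 184.5 and 162 after fraction 1 and 139.8 and 132 after fraction 2 (log2 fold changes 0.60 ± 0.34 SE and 0.28 ± 0.34 SE). Laminin β1 (Lamb1), too dim to be tested, read 49.7 to 114.3 over the 6 arrays.

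The small proteoglycans bind collagen fibrils and growth factors. Decorin (Dcn), a marker of stellate cells and fibroblasts, read 3190 and 1373 in control, 1746 and 1287 after fraction 1 and 2640 and 1482 array units after fraction 2. The 2 high readings were those of scan batch 2. Its log2 fold change after fraction 1 was -0.48 ± 0.40 SE over all arrays and 0.13 within batch 1.

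Lumican (Lum) read 587 and 586 in control, 450.2 and 395 after fraction 1 and 461 and 391 array units after fraction 2. All 4 fraction arrays lay below both controls, with log2 fold changes of -0.46 ± 0.19 SE (adjusted p = 0.384 with limma) and -0.45 ± 0.19 SE (adjusted p = 0.712). Within the scan batches, Lum stood at -0.34 in batch 2 and -0.56 in batch 1 after fraction 2, and at -0.46 in batch 1 after fraction 1. Biglycan (Bgn) depended on the probe set: the brightest gave -0.03 after fraction 1, and the others gave -0.79 ± 0.24 SE and -0.85 ± 0.28 SE. For these 2 dimmer Bgn probe sets both fraction 1 arrays lay below both controls (adjusted p = 0.206 and 0.255 with limma). After fraction 2 the brightest gave 0.19 and the others -0.33 and -0.51.

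Fibronectin (Fn1), which hepatocytes secrete into plasma in large amounts and stellate cells lay down in the matrix, read 10555 and 10751 in control, 8352 and 8097 after fraction 1 and 7538 and 8748 array units after fraction 2. The fraction 1 mean was 8225 ± 180 and the fraction 2 mean 8143 ± 855, against 10653 ± 139 in control (SD, n = 2 each). These are log2 fold changes of -0.37 ± 0.13 SE (95% interval -0.66 to -0.08, adjusted p = 0.266 with limma) and -0.39 ± 0.13 SE (interval -0.68 to -0.10, adjusted p = 0.602). Within scan batches the fraction 2 values were -0.48 and -0.30, and between the fractions Fn1 differed by 0.02 (interval -0.27 to 0.31). A second, dim Fn1 probe set gave -0.56 and -0.16, and -0.40 between the fractions. Other abundant hepatocyte products were also below control after fraction 2 without passing the threshold. Transthyretin (Ttr) stood at -0.47, albumin (Alb) at -0.42 and Apoa1 at -0.44 there, and at -0.30, -0.24 and -0.29 after fraction 1. All 7 tested hepatocyte markers were below 0 after fraction 2. After fraction 1, 4 were below 0 and 3 above, namely Tat (0.41), Cps1 (0.10) and Tdo2 (0.03). The part of these products in the values of Fn1 was not tested.

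Sparc, which binds collagen and is made by stellate and endothelial cells, read 2321 and 2263 in control, 1665 and 1173 after fraction 1 and 2387 and 1698 array units after fraction 2. Both fraction 1 arrays lay below the other 4, by a small margin for fraction 2 replicate b. The log2 fold change of Sparc was -0.71 ± 0.23 SE after fraction 1 (adjusted p = 0.245 with limma) and -0.69 within batch 1, and a second Sparc probe set gave -0.29. Against fraction 2 it was -0.52 ± 0.23 SE (adjusted p = 0.619). Tgfbi, a TGF-beta-induced matrix protein, had 4 tested probe sets, with log2 fold changes after fraction 1 of -0.45, -0.20, -0.60 and -0.98; after fraction 2 they ran from -0.40 to -0.14, and between the fractions 1 of the 4 was above 0, at 0.10. Thrombospondin 1 (Thbs1), an activator of latent TGF-beta, read 77.7 and 121 in control, 79.2 and 134 after fraction 1 and 66.5 and 106 after fraction 2, with overlap throughout.

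Among the regulators of turnover, Timp1, an inhibitor of metalloproteinases that is known to be induced in injured liver, read 118 and 208 in control, 187 and 184 after fraction 1 and 153.5 and 150.4 array units after fraction 2. Its control arrays enclosed all 4 fraction readings. The log2 fold changes of Timp1 were 0.22 ± 0.30 SE and -0.04 ± 0.30 SE, and the sign for fraction 1 turned to -0.15 without control replicate 1.

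Timp3, the inhibitor that stays bound to the matrix, read 292 and 309 in control, 218 and 202 after fraction 1 and 224 and 228 array units after fraction 2 with its brightest probe set. All 4 fraction arrays lay below both controls, with log2 fold changes of -0.49 ± 0.20 SE (adjusted p = 0.379 with limma) and -0.39 ± 0.20 SE (adjusted p = 0.749). The other 2 tested Timp3 probe sets gave 0.15 and 0.11 after fraction 1 and -0.38 and -1.34 after fraction 2. That last probe set read 262 and 348 in control, 276 and 389 after fraction 1 and 170.3 and 68.4 after fraction 2, and between the fractions it differed by 1.46 ± 0.38 SE (adjusted p = 0.425 with limma). The probe sets of Timp3 thus disagreed on fraction 1 and had 1 sign for fraction 2. Timp2 had its highest reading, 891, in control replicate 2, while the remaining 5 arrays read 446 to 588, and its probe sets also had both signs after fraction 1.

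The gelatinase Mmp2 and the membrane-bound Mmp14, which activates it, had log2 fold changes of 0.17 and -0.04 after fraction 1 and of -0.13 and -0.22 after fraction 2, with overlapping groups. A dimmer Mmp2 probe set gave -0.31 and -0.26. Lox, the main lysyl oxidase, read 112 and 123 in control, 76.4 and 72.5 after fraction 1 and 84.3 and 74.5 array units after fraction 2. All 4 fraction arrays were below both controls. They were also below the 40th percentiles of their arrays, so the control arrays alone made Lox a tested member. At these low signals its log2 fold changes were -0.56 ± 0.37 SE and -0.48 ± 0.37 SE (adjusted p = 0.601 and 0.805 with limma). A dimmer Lox probe set gave -0.04 ± 0.64 SE and -1.16 ± 0.64 SE, with controls of 45 and 192 array units. Loxl1 was too dim to be tested, at 22 to 53.5 array units.

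The stellate and contractile cell genes showed no common direction. Acta2, the smooth muscle actin that marks activated stellate cells, read 555 and 568 in control, 505 and 653 after fraction 1 and 476 and 642 array units after fraction 2. Both fractions enclosed the control readings, with log2 fold changes of 0.03 ± 0.22 SE (95% interval -0.48 to 0.55) and -0.02 ± 0.22 SE (interval -0.53 to 0.49). Tagln, an actin-binding protein of contractile cells, was slightly higher in all 4 fraction arrays, at 159 to 177 against at most 153 in both control arrays, with log2 fold changes of 0.27 and 0.18.

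Desmin (Des), an intermediate filament of stellate cells in rodent liver, read 140.0 and 261 in control, 109 and 137 after fraction 1 and 110.1 and 155 array units after fraction 2. Control replicate 2 stood well above the other 5 arrays. The log2 fold change of Des was -0.59 ± 0.35 SE after fraction 1 (adjusted p = 0.554 with limma) and -0.17 without control replicate 2; after fraction 2 it was -0.50 ± 0.35 SE and -0.09. Lrat, which stores vitamin A as retinyl ester in stellate cells, was too dim to be tested: it read 39 and 81.2 in control, 35.9 and 55.9 after fraction 1 and 37.3 and 41.4 after fraction 2, again with the highest reading in control replicate 2. Pdgfrb, the receptor for the PDGF that drives stellate cell division, read 103.2 and 103.3 in control, 84.8 and 63.4 after fraction 1 and 132.2 and 82.2 after fraction 2. Both fraction 1 arrays lay below both controls at these low signals. The log2 fold changes of Pdgfrb were -0.41 ± 0.39 SE (adjusted p = 0.739 with limma) and 0.02 ± 0.39 SE. Vimentin (Vim), an intermediate filament of mesenchymal cells, read 535 and 374 in control, 385 and 337 after fraction 1 and 474 and 491 array units after fraction 2. Both fraction 1 arrays lay below both fraction 2 arrays and overlapped with control. Vim stood at -0.30 after fraction 1 and 0.10 after fraction 2 with its brightest probe set and at 0.34 and 0.58 with a dimmer one.

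**Figure D3:**
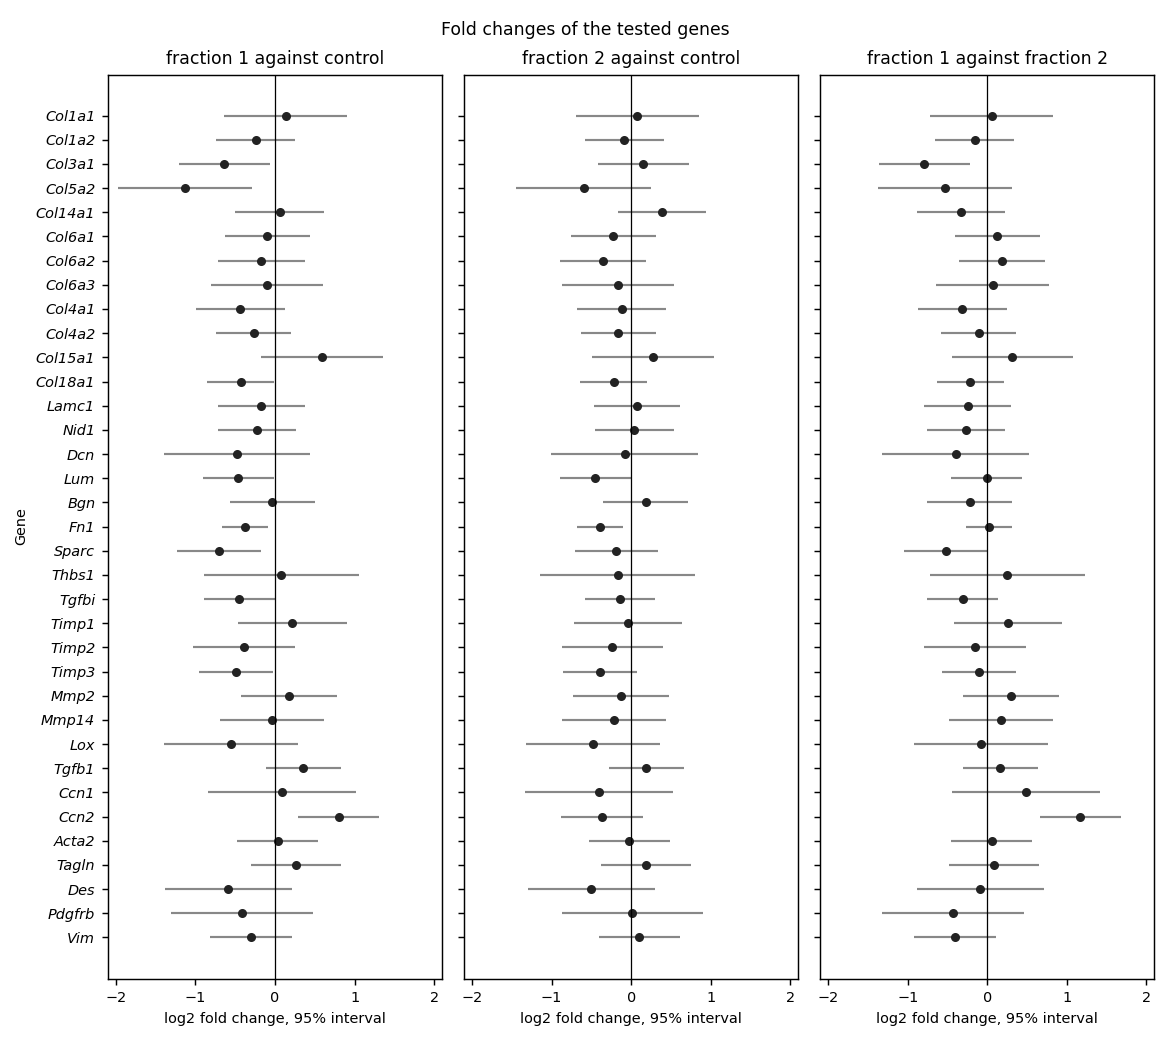
Log2 fold change (points) and 95% interval from limma (lines) of the 35 tested members in each comparison, on the log2(signal + 16) scale. No member passed an adjusted p of 0.05; the interval of Ccn2 is 0.29 to 1.31 for fraction 1 against control and 0.66 to 1.68 for fraction 1 against fraction 2.

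Across the list, fraction 1 against control placed 24 of the 35 tested members (68.6%) below 0 and 11 above, where 52.8% of all probe sets were below 0, with a median log2 fold change of -0.23, against -0.03 over all 9209 tested genes. At an unadjusted p under 0.05 there were 9 members (25.7%), 8 of them lower and Ccn2 higher, against 12.4% of all probe sets, made of 6.48% lower and 5.92% higher. By their brightest probe sets, the 8 were Sparc, Col5a2, Fn1, Col3a1, Timp3, Lum, Col18a1 and Tgfbi. The other tested probe sets of Timp3 were above 0. Without fraction 1 replicate b 1 member was left at that level, and without either fraction 2 array, which enters only the estimate of the spread, 5 were left. In 15 members (42.9%) both fraction 1 arrays lay below both control arrays and in 4 (11.4%) above, against 22.1% and 18.8% of all probe sets. The median was -0.28 within scan batch 1, -0.27 with scan batch as a block and -0.17 without control replicate 2.

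Fraction 2 against control also placed 24 members (68.6%) below 0, where 55.4% of all probe sets were, with a median of -0.14 against -0.05 over all tested genes. Here 2 members (5.71%), Fn1 and Lum, both lower, had an unadjusted p under 0.05, against 6.95% of all probe sets, made of 3.56% lower and 3.39% higher. Both fraction 2 arrays lay below both controls in 8 members (22.9%) and above in 3 (8.57%), close to the 20.4% and 14.8% of all probe sets. The median moved to -0.01 without control replicate 2, and centring each array on its median added 0.12 to every fraction 2 difference and left 20 of 35 members below 0. Within batch 2 and batch 1 the medians were -0.17 and -0.18, each from 1 array against 1.

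The comparisons of the fractions with control share the control arrays, so their values stand side by side and are not independent. All 4 fraction arrays lay below both controls for Col5a2, Col4a2, Lum, Fn1, Timp3 and Lox. These are 6 of 35 members or 17.1%, against 10.2% of all probe sets. All 4 lay above both for Tgfb1 and Tagln (5.71%, against 7.96%). Lox, also in the counts for each fraction above, passed the signal filter through the control arrays alone. For Timp3 only the brightest probe set counts here, and its other tested probe sets overlapped with control after fraction 1.

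Between the fractions, 20 members (57.1%) were lower and 15 higher with fraction 1, where 47.7% of all probe sets were lower, with a median of -0.09 against 0.02 over all tested genes. Only Ccn2 and Col3a1 had an unadjusted p under 0.05 (5.71% of members, against 8.04% of all probe sets, made of 3.86% higher and 4.18% lower), and Sparc and Vim followed, the latter at -0.41 ± 0.22 SE (adjusted p = 0.663 with limma). Fraction 1 arrays lay above both fraction 2 arrays in 6 members (17.1%) and below in 11 (31.4%), against 25.4% and 21.4% of all probe sets.

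Members measured by more than 1 tested probe set allow a check within the array. Of 13 such members, 8 had probe sets of a single sign when fraction 1 was compared with control, 10 when fraction 2 was, and 5 in the direct comparison of the fractions. For fraction 1 the members with both signs were Col14a1, Mmp2, Timp2, Timp3 and Vim. The probe sets used for Col6a2, Col18a1, Tgfbi, Ccn1 and Acta2 carry the maker's suffix s or x, which marks probes that can match transcripts of several genes.

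**Figure D4:**
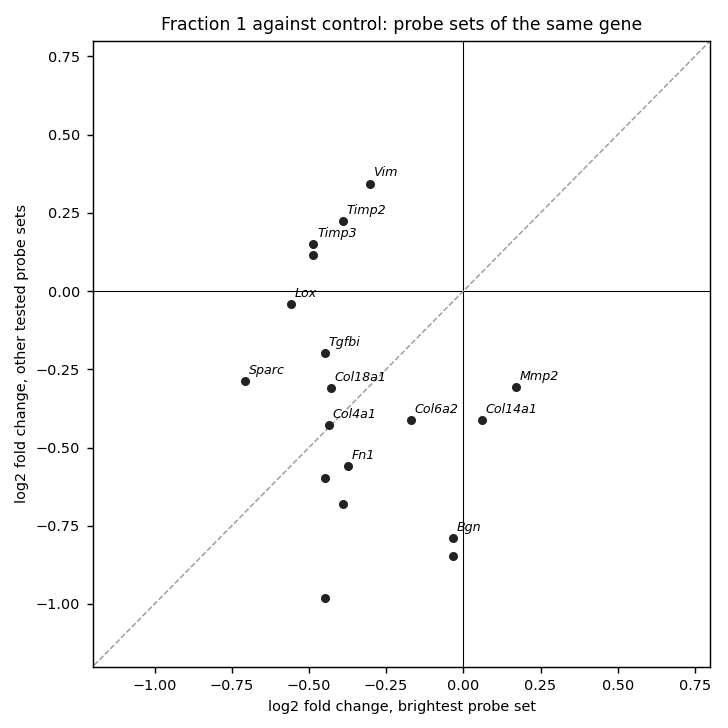
Log2 fold change of fraction 1 against control for the brightest probe set of a member (horizontal axis) and for its other tested probe sets (vertical axis), for the 13 members that have both; the dashed line marks equal values. The points of Bgn lie well below the line, and those of Vim and Timp3 are above 0 where the brightest probe set is below it.

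A further 70 genes of matrix assembly, crosslinking, TGF-beta signalling and matrix receptors were read in the same fits. Of these 65 were measured and 48 tested, and none passed the threshold in any comparison (limma; at an unadjusted p under 0.05 there were 4, 3 and 1, in the order of the comparisons above, or 8.33%, 6.25% and 2.08%, each below the 12.4%, 6.95% and 8.04% of all probe sets). Their median log2 fold changes were -0.07, -0.14 and 0.10. Prelp, a small proteoglycan of connective tissue, stood at -0.62 ± 0.23 SE after fraction 1, with 794 and 710.0 in control and 494 and 470.3 array units after fraction 1. Smad4, the shared partner of the TGF-beta signal transducers, read 983 and 1229 in control and 712 to 815 in the 4 fraction arrays, with log2 fold changes of -0.49 ± 0.19 SE and -0.58 ± 0.19 SE (adjusted p = 0.339 and 0.606 with limma). Fibulin 1 (Fbln1) read 228 and 213 in control and 124 to 148 in the fraction arrays, with -0.57 and -0.72. Between the fractions, Col5a3, a type V collagen chain like Col5a2, stood at -0.75 ± 0.20 SE (268 and 244 against 437 and 444 array units, adjusted p = 0.43 with limma), and periostin (Postn) at -0.60 ± 0.27 SE.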

How the data were processed

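Per the file headers, RNA was hybridised to MOE430A arrays on an HP scanner. The authors deposited 1 linear signal intensity per probe set and array; the software that made it is not given in the sources used here. Values were used as deposited, since the trimmed means of the arrays (without the lowest and highest 2%) were equal within 0.082%. The table held 22690 probe sets, from which 64 controls were dropped. Symbols came from the platform annotation, checked through Entrez IDs against a gene table (20351 of 20380 probe sets with a single symbol matched; 0 changed). The deposited experiment files carry no measurement (unit: other), only the chip lot and scan day of each array.

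Testing required a signal at or above the array's own 40th percentile on 2 or more of the 6 arrays. The log2 of signal plus 16 was computed from the deposited intensities, which understates the change of dim genes, and fitted over all 6 arrays with limma 3.58.1 in R 4.3.3 (lmFit, eBayes with a variance trend; degrees of freedom: residual 3, prior 5.43). All p-values are two-sided and were adjusted by Benjamini-Hochberg over the tested probe sets, with 0.05 as the threshold. The procedure was tested on simulated data. An exact permutation test of 2 arrays against 2 cannot give a p below 0.333 and was not used. Precision is limited by how few arrays there are; across probe sets, log2 fold changes had a median SE of 0.25.

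The members and lists were chosen with earlier results of these data known. Values per array were given for members past the threshold, for the 4 with the smallest p in each comparison, for 11 members reported in every comparison where measured (Col1a1, Col3a1, Col4a1, Dcn, Timp1, Acta2, Des, Lrat, Tgfb1, Ccn2 and Fn1), and for others within their role group. Alternatives changed 1 choice at a time. Cell type lists were hepatocyte, stellate cell, portal fibroblast, vascular smooth muscle, sinusoidal endothelium, Kupffer cell and macrophage, bile duct, lymphocyte and mesothelium. Plots used matplotlib 3.10.9 under Python 3.11.15.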

Additional observations from a re-analysis of the deposited data

Results flagged for a closer look

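Ccn2 is listed because its arrays lay on opposite sides of the controls: both fraction 1 arrays, at 769.6 and 721 array units, were above both control arrays, and both fraction 2 arrays, at 335 and 311, were below them. The difference between the fractions was 1.17 on the log2 scale, with an adjusted p of 0.225 in limma's test of that difference, so it did not pass. Among the 35 tested members it was the only one with this arrangement. No group held enough arrays for a test of outlying arrays.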

How the results depend on the processing

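The count of members past the threshold stayed at 0 under each of 18 alternatives for fraction 1 against control (smallest adjusted p 0.0668, for Ccn2 without control replicate 1) and for fraction 2 against control (smallest 0.199). Between the fractions it was 0 under 18 of 19 alternatives and 1 with the replicate letters as a block, where Ccn2 (1.17) had an adjusted p of 0.0459. The labels do not say what the letters stand for. The b arrays of both fractions were of chip lot 3, and the a arrays were of lots 1 and 2. The deviations of same-lettered fraction arrays had r = 0.03. Over the whole table, the letters as a block raised the count of calls from 2 to 75. The medians ran from -0.28 to -0.17 for fraction 1, from -0.23 to -0.01 for fraction 2 and from -0.17 to -0.01 between the fractions. Each alternative moved them from -0.23, -0.14 and -0.09 by less than the SD between replicates of 0.19. Over all probe sets, the 105 calls for fraction 1 became 12 without a variance trend, 27 without a filter, 39 with the groups compared alone, 48 with median centring, 66 within scan batch 1 and 14 to 149 when an array was left out. The 16 for fraction 2 became 2 without a variance trend, 4 within batch 1, 9 with the groups alone, 10 without a filter or with chip lot as a block, and 3 to 28 with an array left out. Between the fractions, chip lot as a block gave 16, an omitted array 0 to 11, and quantile normalization, median centring, a pseudocount of 1, scan batch as a block, no filter, batch 1 alone and no variance trend gave 0. The cause of these differences was not tested. Among the members followed singly, none of them called, the sign between the fractions turned under 8 of 19 alternatives for Fn1 and 7 of 18 for Col1a1, and that of Dcn after fraction 2 under 5 of 18. Each group had 2 arrays, which limits the precision.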

Other observations

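Cell type lists outside the text above gave no call with limma in any comparison. Among 12 Kupffer cell and macrophage markers, all tested, 9 were below 0 after fraction 1 with a median of -0.18, and 2 (16.7%, against 12.4% of all probe sets) had an unadjusted p under 0.05: Adgre1 (F4/80), at -0.77 ± 0.22 SE, and Clec4f, a lectin of Kupffer cells, at -0.55 ± 0.18 SE (adjusted p = 0.183 and 0.24). Marco, a scavenger receptor of macrophages, had the other sign, with 135 and 137 array units in control, 202 and 185 after fraction 1 and 98.4 and 112 after fraction 2; it differed between the fractions by 0.80 ± 0.26 SE (adjusted p = 0.516). The summed signal of this list was 11473 and 12917 array units in control, 10511 and 11188 after fraction 1 and 11267 and 12184 after fraction 2. Of 8 portal fibroblast markers, 6 were tested, with 5 below 0 and a median of -0.11 after fraction 1, and with 3 on each side of 0 between the fractions. In that list Gas6, a ligand of TAM receptors, read 554 and 542 in control, 361 and 285 after fraction 1 and 823 and 661 array units after fraction 2. Gas6 differed between the fractions by -1.16 ± 0.21 SE (adjusted p = 0.225), and Col15a1 of the same list by 0.32 ± 0.34 SE. Of 8 vascular smooth muscle markers, 7 were tested, with medians of -0.13 and -0.06 after fractions 1 and 2. Bile duct, lymphocyte and mesothelial lists had 1, 5 and 2 tested markers. None of their tested markers stood at an unadjusted p under 0.05 except the keratin Krt8, at 0.34 after fraction 2, which hepatocytes express as well.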
